A study of Saccharomyces cerevisiae with 16 samples.

Results

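The 34 genes described here encode the heat shock proteins and cochaperones of the budding yeast cytosol and mitochondria, together with HSF1, the gene of the heat shock transcription factor. They were taken from a list of named genes, 1 probe set per gene, and the brighter probe set was used where a gene had more. All 34 were measured, out of 5404 named genes that could be tested. Transcript levels were read on 16 Affymetrix Yeast Genome 2.0 arrays, in which a set of short probes reports 1 transcript as a log2 signal. All cells were BY4741, which the labels call wild type and which as background lacks the marker genes HIS3, LEU2, MET17 and URA3 in whole or in part. They were in early exponential phase in yeast extract, peptone and dextrose medium at 30 °C with shaking at 250 rpm. Each of 4 groups has 4 arrays: no treatment (control), 0.05 mM acrolein, 0.3 mM H2O2 (hydrogen peroxide) or 0.016 mM NEM, each treatment for 1 h. NEM is read here as N-ethylmaleimide. Acrolein, an unsaturated aldehyde, and N-ethylmaleimide both react with protein thiols as a matter of background. The doses differ, so the sizes of responses rank neither potency nor specificity.

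Chaperones bind unfolded stretches of other proteins and release them for folding. Hsp70 proteins do so in an ATP cycle that J proteins start and nucleotide exchange factors end, Hsp90 acts on more nearly folded clients with the help of cochaperones, and Hsp104 pulls proteins out of aggregates that small heat shock proteins have coated. In yeast Hsf1 drives many of these genes in growing cells as well as under stress. Free cytosolic Hsp70 holds Hsf1 back, and Msn2 and Msn4 add to the induction of some of them.

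Gene identity and RNA quality bear on how the values can be read. On all 16 arrays URA3 and MET17 had the minimum of the deposited values, and LEU2 had it on 15, which are markers the strain lacks. HIS3 read 11.06 to 12.27, so its probe set reported signal. Of the mating type markers the a-cell genes MFA1, MFA2 and STE2 read 12.44 to 13.50 and the alpha-cell gene STE3 4.44 to 7.59, but SAG1, also an alpha-cell gene, read 10.79 to 11.97. Acrolein replicate 1 had a ribosomal RNA signal of 15.48 and a 3′ minus 5′ signal of 1.20, against 4.38 to 12.64 and 0.60 to 0.78 on the other arrays. H2O2 replicate 4 had the lowest ribosomal RNA signal, 4.38, and H2O2 replicate 1 read 7.8. Replicate 4 was also the lowest of the control (8.75), acrolein (9.2) and NEM (9.23) groups. Leaving out acrolein replicate 1 and H2O2 replicate 4 gave 24 called chaperone genes after acrolein (27 with them) and 6 after H2O2 (10 with them). The part of RNA quality in single results was not tested. Whether a group's arrays stem from different cultures is not said in the labels, and the p-values reflect how far these arrays vary, which may be only technical spread. In extracts of whole cultures, fewer cells with a transcript and less of it per cell cannot be told apart.

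Acrolein and NEM changed most of the 34 transcripts, in both directions, while H2O2 changed fewer, a contrast that all probe sets shared. The members' shares called were 79.4%, 67.6% and 29.4% after acrolein, NEM and H2O2. Of all probe sets 64.0%, 58.6% and 19.8% were called. After acrolein 19 genes rose and 8 fell (limma, adjusted p under 0.05), against 27.2% of all probe sets higher and 36.9% lower. The members' shares were 55.9% and 23.5%, with a median difference of 0.16 on the log2 scale, against -0.05 for all probe sets. After NEM 16 rose and 7 fell, which is 47.1% and 20.6% against a background of 26.4% and 32.2%, with a median of 0.12 against -0.01. After H2O2 5 rose and 5 fell, 14.7% each against 9.23% and 10.6%. The share in each direction thus lay near the background, and the members' median was 0.01 against -0.02. The H2O2 count was 4 without control replicate 3 or without H2O2 replicate 2. It was 5 without control replicate 2, control replicate 4 or H2O2 replicate 4, and 6 without NEM replicate 2.

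AHA1, SSB1, YDJ1, SIS1 and HSP31 rose in all 3 treatments, and HSP26 and MGE1 fell in all 3. Another 10 rose after acrolein and NEM and were not called after H2O2: HSC82, STI1, CPR6, SSA2, SSB2, ZUO1, SSE1, HSP60, MDJ1 and HSP78. HSP82, SBA1, SSA4 and SNL1 fell after acrolein and NEM and were not called after H2O2. SSZ1, APJ1 and HSP10 rose after acrolein alone and CPR7 and CDC37 fell after acrolein alone. SSA3 and SSE2 fell after H2O2 alone, HSF1 rose after NEM alone and HSP104 fell after NEM alone. FES1 rose after acrolein and fell after H2O2. HSP42, SSA1 and SSC1 passed in none. The 3 treatments share the control arrays, and a call in one and not in another does not by itself show a difference.

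**Figure D1:**
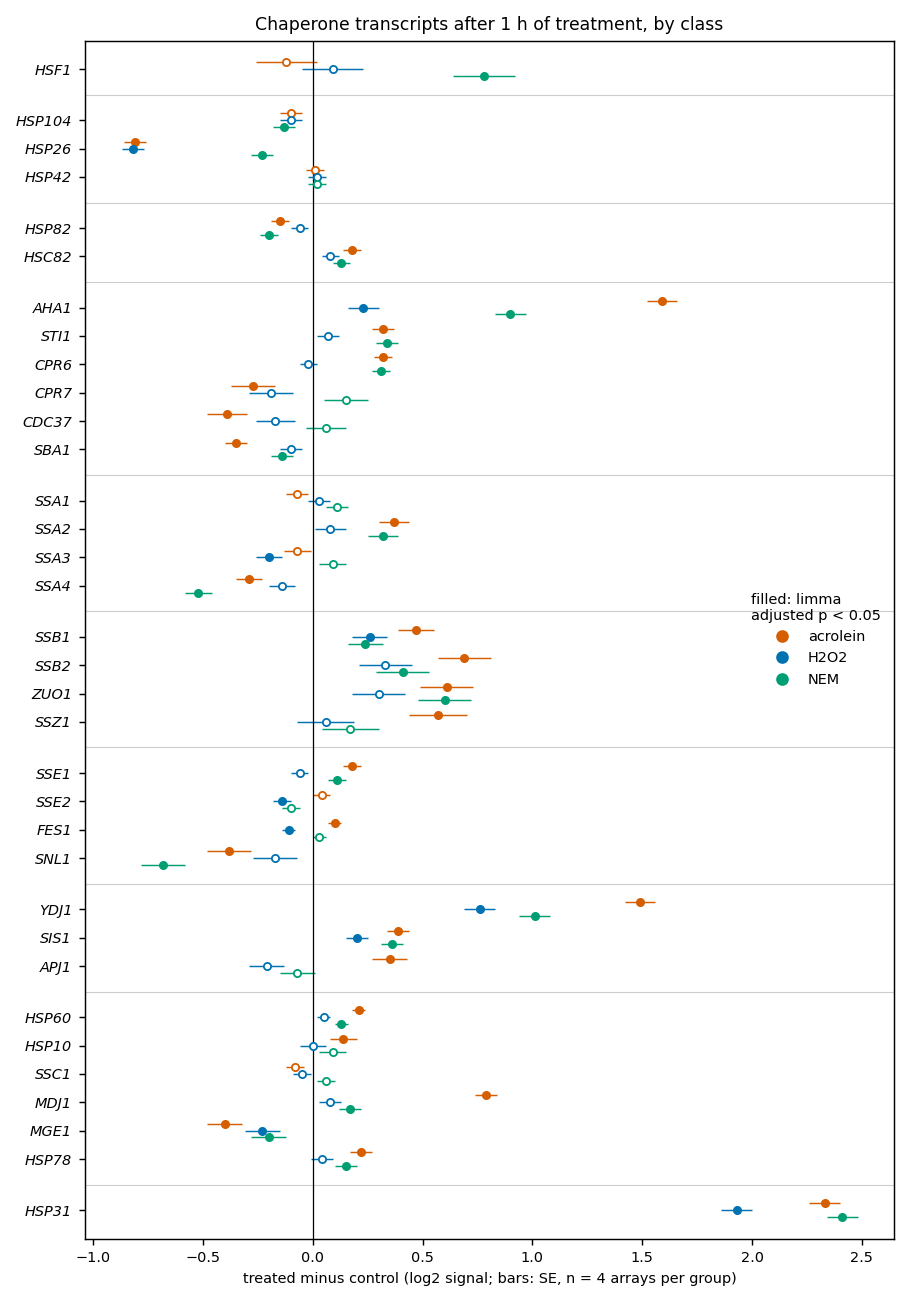
The plot gives, for each of the 34 genes grouped by chaperone class, the difference of the treated mean from the control mean on the log2 scale (points; bars are standard errors, n = 4 arrays per group). Filled points passed the limma test; HSP31 lies farthest to the right in all 3 treatments, and HSP26 farthest to the left after acrolein and H2O2.

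HSP31 had the largest change of the group in every treatment. It encodes a protein of the DJ-1 family that detoxifies methylglyoxal and has been given a chaperone function. Its signal was 12.29, 12.45, 12.35 and 12.40 on the control arrays. It was 14.67, 14.79, 14.56 and 14.78 after acrolein, 14.40, 14.43, 14.23 and 14.17 after H2O2 and 14.71, 14.79, 14.75 and 14.87 after NEM. Every treated array lay above every control array. The increase was 2.33 ± 0.07 after acrolein (SE, n = 4 per group, limma adjusted p = 6.33e-12), 1.93 ± 0.07 after H2O2 (adjusted p = 1.21e-10) and 2.41 ± 0.07 after NEM (adjusted p = 6.07e-12). These are 5.03-fold, 3.82-fold and 5.31-fold. H2O2 arrays stood below those of both other treatments, by 0.40 ± 0.07 against acrolein (adjusted p = 0.000243) and 0.47 ± 0.07 against NEM (adjusted p = 4.85e-05). Acrolein and NEM differed by -0.08 ± 0.07 (95% interval -0.22 to 0.07, adjusted p = 0.358).

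HSF1 transcript rose after NEM and did not pass after the other treatments. The control arrays read 11.32, 11.47, 11.10 and 11.48, and the NEM arrays 11.93, 12.17, 12.02 and 12.36, with no overlap. Acrolein arrays read 11.45, 11.17, 11.02 and 11.25 and H2O2 arrays 11.48, 11.38, 11.10 and 11.76, both groups overlapping the control. The difference was 0.78 ± 0.14 after NEM (limma adjusted p = 0.000332), -0.12 ± 0.14 after acrolein (adjusted p = 0.485) and 0.09 ± 0.14 after H2O2 (adjusted p = 0.735), and the last was -0.02 without H2O2 replicate 4. NEM also stood above acrolein and above H2O2 directly. The acrolein mean was lower by a signed difference of -0.90 ± 0.14 (adjusted p = 0.000202), and the NEM mean exceeded the H2O2 mean by 0.69 ± 0.14 (adjusted p = 0.000982). This is the level of the transcript, which says nothing of the activity of the protein.

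The 2 Hsp90 genes moved in opposite directions after acrolein and NEM. HSC82, the isoform expressed at all times, read 14.92, 14.92, 15.02 and 14.89 in the control, 15.16, 15.09, 15.09 and 15.14 after acrolein, 15.04, 15.06, 15.04 and 14.93 after H2O2 and 15.17, 15.10, 15.01 and 15.00 after NEM. It rose by 0.18 ± 0.04 after acrolein (limma adjusted p = 0.00236) and 0.13 ± 0.04 after NEM (adjusted p = 0.0189). HSP82, the heat-inducible isoform, read 14.49, 14.50, 14.48 and 14.41 in the control, 14.34, 14.28, 14.32 and 14.33 after acrolein, 14.49, 14.40, 14.34 and 14.38 after H2O2 and 14.36, 14.28, 14.26 and 14.16 after NEM. It fell, with differences of -0.15 ± 0.04 after acrolein (adjusted p = 0.00614) and -0.20 ± 0.04 after NEM (adjusted p = 0.000913). The acrolein and NEM arrays of HSP82 all lay below the control arrays. The NEM call of HSC82 ended without control replicate 4 or NEM replicate 1, where the adjusted p was at most 0.0648, and the difference with 1 array left out was 0.10 to 0.16. It also ended when control and NEM arrays were fitted alone. Neither gene passed after H2O2, with differences of 0.08 ± 0.04 for HSC82 (adjusted p = 0.226) and -0.06 ± 0.04 for HSP82 (adjusted p = 0.317).

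Among the 6 Hsp90 cochaperones AHA1 had the largest change after acrolein and NEM. AHA1, which stimulates the Hsp90 ATPase, read 13.26, 13.15, 13.03 and 13.15 in the control and 14.71, 14.76, 14.68 and 14.80 after acrolein. After H2O2 it read 13.46, 13.45, 13.28 and 13.32 and after NEM 14.25, 14.10, 13.87 and 13.96. Acrolein arrays stood highest, NEM arrays next and H2O2 arrays just above the control. The increases were 1.59 ± 0.07 (limma adjusted p = 9.48e-10), 0.90 ± 0.07 (adjusted p = 2.71e-07) and 0.23 ± 0.07 (adjusted p = 0.0478) for acrolein, NEM and H2O2. Acrolein exceeded NEM by 0.69 ± 0.07 (adjusted p = 1.14e-05). The H2O2 call of AHA1 ended without any 1 of control replicates 2 to 4, any acrolein array, H2O2 replicates 1, 2 or 4, or NEM replicates 2 or 4, with adjusted p up to 0.13 and differences of 0.19 to 0.26.

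The other Hsp90 cochaperones split after acrolein. STI1, the Hsp70 to Hsp90 adaptor, rose by 0.32 ± 0.05 after acrolein and 0.34 ± 0.05 after NEM. CPR6, a cyclophilin that binds Hsp90, rose by 0.32 ± 0.04 and 0.31 ± 0.04. Its arrays read 14.95, 14.90, 14.90 and 14.92 in the control, 15.16, 15.27, 15.23 and 15.30 after acrolein, 14.95, 14.91, 14.85 and 14.88 after H2O2 and 15.27, 15.28, 15.22 and 15.14 after NEM, and the acrolein and NEM arrays all lay above the control. CPR7, the related cyclophilin, read 10.36, 10.61, 10.58 and 10.47 in the control, 10.20, 10.07, 10.40 and 10.29 after acrolein, 10.15, 10.41, 10.46 and 10.24 after H2O2 and 10.83, 10.74, 10.56 and 10.48 after NEM. Its acrolein and control arrays overlap, and it fell by 0.27 ± 0.10 after acrolein (limma adjusted p = 0.0265). This call was lost without control replicates 2 or 3 or acrolein replicates 1 or 2 (adjusted p up to 0.0818, differences -0.32 to -0.21). CDC37, which brings kinases to Hsp90, fell by 0.39 ± 0.09 after acrolein (adjusted p = 0.00154). SBA1, the p23 homologue, fell by 0.35 ± 0.05 after acrolein (adjusted p = 2.59e-05) and 0.14 ± 0.05 after NEM (adjusted p = 0.0235). The latter call ended without control replicates 2 or 4 or NEM replicate 1 (adjusted p up to 0.0703, differences -0.17 to -0.09). After H2O2 STI1, CPR6, CPR7, CDC37 and SBA1 differed from the control by -0.19 to 0.07, none of them called.

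The 4 cytosolic Hsp70 genes of the SSA family did not move as a group. SSA2, expressed in growing cells, read 15.36, 15.23, 15.28 and 15.17 in the control, 15.65, 15.55, 15.64 and 15.67 after acrolein, 15.43, 15.48, 15.32 and 15.12 after H2O2 and 15.68, 15.62, 15.48 and 15.53 after NEM. It rose by 0.37 ± 0.07 after acrolein (limma adjusted p = 0.000469) and 0.32 ± 0.07 after NEM (adjusted p = 0.00158), and H2O2 arrays overlapped the control. SSA1, its close relative, read 15.57, 15.55, 15.53 and 15.51 in the control, 15.44, 15.45, 15.40 and 15.59 after acrolein, 15.66, 15.64, 15.44 and 15.53 after H2O2 and 15.71, 15.69, 15.60 and 15.58 after NEM. It differed by -0.07 ± 0.05, 0.03 ± 0.05 and 0.11 ± 0.05 after acrolein, H2O2 and NEM (adjusted p = 0.256, 0.771 and 0.0978), none passing. It passed after NEM when control and NEM arrays were fitted alone and with array weights.

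SSA4, a stress-inducible member as a matter of background, fell from an already high control signal (mean 15.15, against a median of 11.87 for all probe sets). It read 15.15, 15.15, 15.12 and 15.19 in the control, 14.87, 14.93, 14.78 and 14.85 after acrolein, 15.11, 15.01, 14.98 and 14.95 after H2O2 and 14.81, 14.64, 14.59 and 14.50 after NEM. All treated arrays lay below all control arrays, and the differences were -0.29 ± 0.06 after acrolein (limma adjusted p = 0.000486), -0.52 ± 0.06 after NEM (adjusted p = 3.79e-06) and -0.14 ± 0.06 after H2O2 (adjusted p = 0.105), the last not called. SSA3, also stress-inducible, read 10.88, 10.85, 10.95 and 10.95 in the control, 10.77, 10.96, 10.71 and 10.92 after acrolein, 10.80, 10.62, 10.79 and 10.64 after H2O2 and 10.92, 11.00, 10.95 and 11.11 after NEM. It fell by 0.20 ± 0.06 after H2O2 (adjusted p = 0.0455). The call was lost without any 1 control array, H2O2 replicates 2 or 4, or NEM replicates 1 to 3 (adjusted p up to 0.13, differences -0.23 to -0.16). With the replicate number as a block the adjusted p was 0.0614.

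The 3 cytosolic J proteins chosen here, YDJ1, SIS1 and APJ1, all rose after acrolein, where 27.2% of all probe sets rose. They do not stand for J proteins at large, since of 11 further J proteins 8 fell and 2 rose after acrolein. YDJ1, the main cytosolic Hsp40, read 13.47, 13.37, 13.34 and 13.30 in the control, 14.81, 14.84, 14.88 and 14.92 after acrolein, 14.16, 14.14, 13.92 and 14.28 after H2O2 and 14.48, 14.30, 14.36 and 14.37 after NEM. The 3 treated groups lay above the control without overlap, acrolein highest. It rose by 1.49 ± 0.07 after acrolein (limma adjusted p = 4.71e-10), 0.76 ± 0.07 after H2O2 (adjusted p = 1.83e-06) and 1.01 ± 0.07 after NEM (adjusted p = 2.2e-08). Acrolein exceeded NEM by 0.48 ± 0.07 (adjusted p = 6.82e-05) and NEM exceeded H2O2 by 0.25 ± 0.07 (adjusted p = 0.00528). SIS1, an essential J protein that acts with Hsp70 on aggregates, rose by 0.39 ± 0.05, 0.20 ± 0.05 and 0.36 ± 0.05 after acrolein, H2O2 and NEM (adjusted p = 1.81e-05, 0.0131 and 3.96e-05). Its H2O2 call ended when control and H2O2 arrays were fitted alone (adjusted p = 0.0765). APJ1, a minor J protein, rose by 0.35 ± 0.08 after acrolein (adjusted p = 0.00133) and differed by -0.21 ± 0.08 after H2O2 (adjusted p = 0.0703) and -0.07 ± 0.08 after NEM (adjusted p = 0.48).

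Of 4 Hsp110 and nucleotide exchange factor genes 2 rose and 1 fell after acrolein, and 2 fell after H2O2. Of all probe sets 27.2% rose and 36.9% fell after acrolein, and 10.6% fell after H2O2. SNL1, a membrane-anchored BAG-domain protein, read 11.74, 11.86, 11.85 and 11.83 in the control, 11.52, 11.36, 11.62 and 11.28 after acrolein, 11.62, 11.81, 11.81 and 11.36 after H2O2 and 11.19, 11.14, 11.29 and 10.94 after NEM. It fell by 0.38 ± 0.10 after acrolein (limma adjusted p = 0.00642) and 0.68 ± 0.10 after NEM (adjusted p = 8.6e-05), without overlap in either, and differed by -0.17 ± 0.10 after H2O2 (adjusted p = 0.286). SSE1, the main Hsp110, read 15.15, 15.21, 15.10 and 15.14 in the control, 15.33, 15.26, 15.36 and 15.38 after acrolein, 15.14, 15.15, 15.08 and 14.98 after H2O2 and 15.35, 15.29, 15.19 and 15.24 after NEM. SSE1 rose by 0.18 ± 0.04 after acrolein (adjusted p = 0.00292) and 0.11 ± 0.04 after NEM (adjusted p = 0.0408). The NEM call ended without control replicates 1, 3 or 4 or NEM replicates 1, 2 or 4 (adjusted p up to 0.126, differences 0.09 to 0.14).

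SSE2, the stress-induced Hsp110, read 14.54, 14.55, 14.51 and 14.58 in the control, 14.45, 14.60, 14.62 and 14.67 after acrolein, 14.48, 14.42, 14.36 and 14.40 after H2O2 and 14.47, 14.46, 14.47 and 14.38 after NEM. It fell by 0.14 ± 0.04 after H2O2 (limma adjusted p = 0.0419), with all H2O2 arrays below the control. That call ended without any 1 control array, acrolein replicates 2 or 3, H2O2 replicates 2 to 4 or NEM replicates 1 to 3 (adjusted p up to 0.104, differences -0.16 to -0.12), and with the replicate number as a block (adjusted p = 0.0627). FES1, an exchange factor of cytosolic Hsp70, rose by 0.10 ± 0.03 after acrolein (adjusted p = 0.0173) and fell by 0.11 ± 0.03 after H2O2 (adjusted p = 0.0343), and the direct difference of those treatments was 0.21 ± 0.03 (adjusted p = 0.00015). The acrolein call of FES1 ended without control replicate 2 (adjusted p = 0.0556). That call also ended with the 2 groups fitted alone, after median centring (adjusted p = 0.0709), with a mean of at least 6 and with a floor of 4. Without both acrolein replicate 1 and H2O2 replicate 4 the adjusted p was 0.058. The H2O2 call of FES1 ended without control replicates 1, 3 or 4 or H2O2 replicates 1, 2 or 4 (adjusted p up to 0.0982, differences -0.12 to -0.10).

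HSP26 fell in all treatments, while HSP104 was called after NEM alone and HSP42 in none. HSP26, a small heat shock protein, read 15.06, 15.12, 15.13 and 15.24 in the control, 14.22, 14.33, 14.37 and 14.41 after acrolein, 14.41, 14.22, 14.36 and 14.28 after H2O2 and 14.90, 14.94, 14.90 and 14.87 after NEM. All treated arrays lay below all control arrays, NEM nearest to them. It fell by 0.81 ± 0.05 after acrolein (limma adjusted p = 1.46e-08), 0.82 ± 0.05 after H2O2 (adjusted p = 5.38e-08) and 0.23 ± 0.05 after NEM (adjusted p = 0.00128). Acrolein and H2O2 differed from each other by 0.01 ± 0.05 (95% interval -0.10 to 0.12, adjusted p = 0.87), and NEM exceeded H2O2 by 0.59 ± 0.05 (adjusted p = 5.14e-07).

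HSP42, the other small heat shock protein, read 15.37, 15.33, 15.31 and 15.31 in the control, 15.23, 15.40, 15.32 and 15.40 after acrolein, 15.37, 15.36, 15.33 and 15.35 after H2O2 and 15.39, 15.35, 15.28 and 15.37 after NEM, and the groups overlap. Its differences were 0.01 ± 0.04, 0.02 ± 0.04 and 0.02 ± 0.04 (limma adjusted p = 0.924, 0.735 and 0.758). The sign of these turned after quantile normalization for acrolein and NEM, to -0.03 in both, and for acrolein without acrolein replicate 2 or 4. HSP104, the disaggregase, read 15.54, 15.53, 15.62 and 15.55 in the control, 15.48, 15.35, 15.53 and 15.47 after acrolein, 15.51, 15.45, 15.45 and 15.44 after H2O2 and 15.52, 15.49, 15.32 and 15.37 after NEM. It fell by 0.13 ± 0.05 after NEM (adjusted p = 0.0284). The call was lost without control replicate 3 or NEM replicates 3 or 4 (adjusted p up to 0.0931, differences -0.17 to -0.10). It was also lost with the 2 groups fitted alone, with array weights and after median centring (adjusted p = 0.0712). After acrolein HSP104 differed by -0.10 ± 0.05 and after H2O2 by -0.10 ± 0.05 (adjusted p = 0.0798 and 0.169).

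The 4 ribosome-associated chaperones chosen here, SSB1, SSB2, ZUO1 and SSZ1, all rose after acrolein, with a median of 0.59. Of all probe sets 27.2% rose, and the median over all of them was -0.05. Among nascent chain factors of a further list EGD2 rose by 0.20 ± 0.05 after acrolein. EGD1 and BTT1 were not called, with means of 14.82 and 11.26 in the control and 14.75 and 11.19 after acrolein. SSB2, an Hsp70 of nascent chains, read 14.57, 14.17, 14.31 and 13.93 in the control, 14.84, 14.93, 15.08 and 14.89 after acrolein, 14.49, 14.75, 14.65 and 14.40 after H2O2 and 14.88, 14.62, 14.61 and 14.48 after NEM. Its acrolein arrays all lay above the control arrays, which were widely spread. It rose by 0.69 ± 0.12 after acrolein (limma adjusted p = 0.000292) and 0.41 ± 0.12 after NEM (adjusted p = 0.0128), and differed by 0.33 ± 0.12 after H2O2 (adjusted p = 0.082). SSB1, its near-identical partner, rose by 0.47 ± 0.08, 0.26 ± 0.08 and 0.24 ± 0.08 after acrolein, H2O2 and NEM. The probe set used for SSB1 carries the suffix that marks probes shared between transcripts, so part of its signal may come from SSB2. The other SSB1 probe set, dimmer, differed by 0.69, 0.40 and 0.34 in the same order. The H2O2 call of SSB1 ended without control replicates 2 to 4 or H2O2 replicates 2 or 3 (adjusted p up to 0.105, differences 0.20 to 0.33). The NEM call ended without control replicate 4 or NEM replicate 1 (adjusted p up to 0.0706, differences 0.18 to 0.30). ZUO1, the J protein of this complex, rose by 0.61 ± 0.12 after acrolein (adjusted p = 0.000539) and 0.60 ± 0.12 after NEM (adjusted p = 0.000696). SSZ1, its Hsp70 partner, rose by 0.57 ± 0.13 after acrolein (adjusted p = 0.00175) and differed by 0.17 ± 0.13 after NEM (adjusted p = 0.287).

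Of 6 mitochondrial chaperones 4 rose and 1 fell after acrolein, MDJ1 changing most. These are 66.7% and 16.7%, against 27.2% and 36.9% of all probe sets. MDJ1, the J protein of the matrix, read 13.52, 13.50, 13.54 and 13.46 in the control, 14.31, 14.25, 14.27 and 14.33 after acrolein, 13.67, 13.57, 13.58 and 13.51 after H2O2 and 13.77, 13.68, 13.53 and 13.72 after NEM. Acrolein arrays stood apart from all others, and the difference was 0.79 ± 0.05 (limma adjusted p = 1.09e-08), against 0.17 ± 0.05 after NEM (adjusted p = 0.00712) and 0.08 ± 0.05 after H2O2 (adjusted p = 0.279). Acrolein exceeded NEM by 0.61 ± 0.05 (adjusted p = 5.82e-07). HSP60, the chaperonin, rose by 0.21 ± 0.03 after acrolein and 0.13 ± 0.03 after NEM. HSP10, its lid, rose by 0.14 ± 0.06 after acrolein (adjusted p = 0.0466). The call was lost without control replicates 1, 3 or 4, any 1 acrolein array, H2O2 replicate 2 or NEM replicates 2 or 3 (adjusted p up to 0.149, differences 0.10 to 0.16).

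MGE1, the exchange factor of mitochondrial Hsp70, went the other way. It fell by 0.40 ± 0.08 after acrolein (limma adjusted p = 0.000389), 0.23 ± 0.08 after H2O2 (adjusted p = 0.048) and 0.20 ± 0.08 after NEM (adjusted p = 0.0342). Its H2O2 call ended without control replicates 1 to 3, any 1 acrolein array, H2O2 replicates 1, 2 or 4 or NEM replicates 2 or 3 (adjusted p up to 0.136, differences -0.27 to -0.16). Its NEM call ended without control replicates 2 or 3 or NEM replicates 3 or 4 (adjusted p up to 0.112, differences -0.24 to -0.15). That call also ended with the 2 groups fitted alone, with array weights and after median centring (adjusted p = 0.0531). SSC1, mitochondrial Hsp70, passed in no treatment, with differences of -0.08 ± 0.04, -0.05 ± 0.04 and 0.06 ± 0.04 after acrolein, H2O2 and NEM. HSP78, the matrix disaggregase related to Hsp104, read 14.76, 14.77, 14.62 and 14.64 in the control, 14.88, 14.98, 14.87 and 14.94 after acrolein, 14.82, 14.78, 14.66 and 14.70 after H2O2 and 14.93, 14.85, 14.75 and 14.85 after NEM. It rose by 0.22 ± 0.05 after acrolein (adjusted p = 0.00165) and 0.15 ± 0.05 after NEM (adjusted p = 0.022). The NEM call of HSP78 ended without control replicates 3 or 4 or NEM replicate 1 (adjusted p up to 0.0709, differences 0.12 to 0.18).

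**Figure D2:**
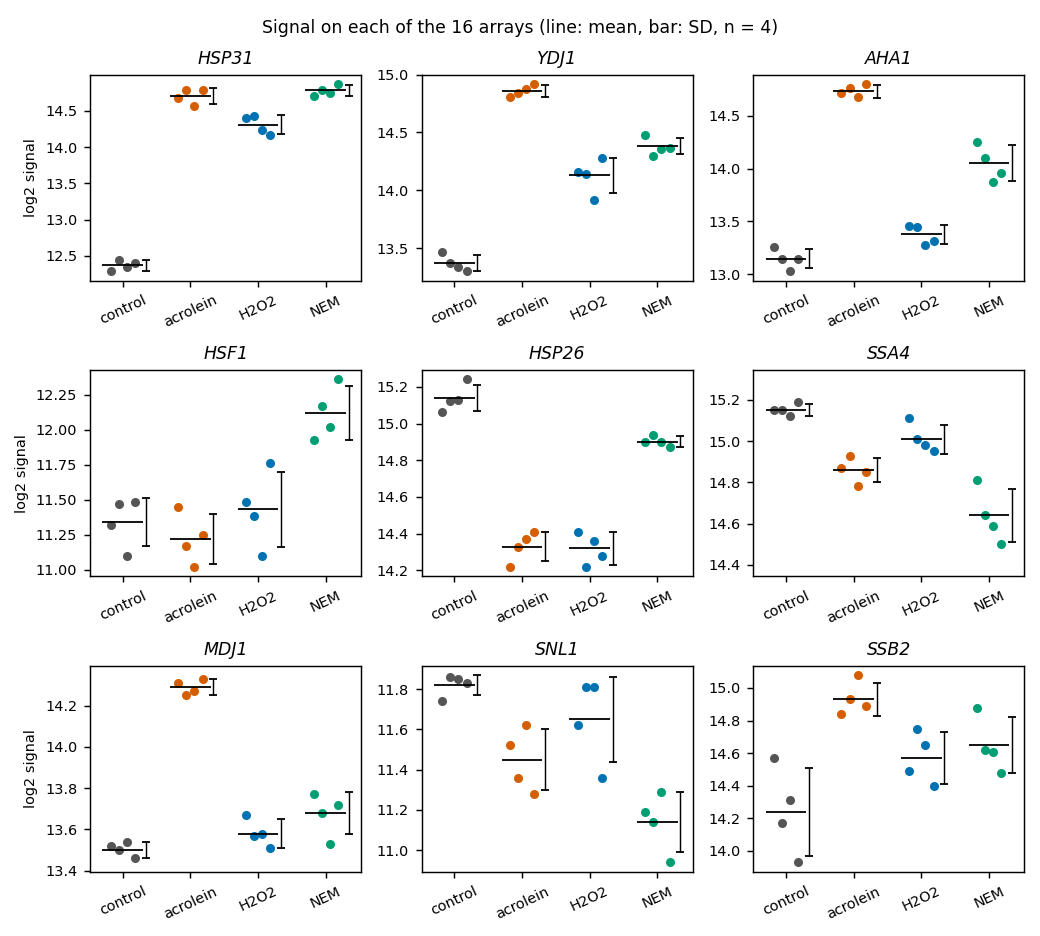
Each panel shows 1 gene on its own log2 axis, with 1 point per array in the control, acrolein, H2O2 and NEM groups, a line at the mean and a bar of 1 SD (n = 4). HSP31 and YDJ1 are above the control in all treated groups, HSF1 in the NEM group, and HSP26 is below the control in all treated groups.

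Related genes of a class often changed by unequal amounts. For 8 pairs the difference between both genes was taken within each array and compared between treated and control arrays by an exact permutation test, two-sided, 24 tests in all. In 15 the groups did not overlap and p was 0.0286, the smallest that 4 against 4 arrays allow, which is 0.0457 after adjustment over the 24. The change of HSP26 minus that of HSP42 was -0.81 after acrolein, -0.84 after H2O2 and -0.25 after NEM. For HSP82 minus HSC82 it was -0.33, -0.14 and -0.34 in the same order. In each of these pairs both genes encode the same kind of chaperone. For SSA1 minus SSA2 it was -0.44 after acrolein and -0.21 after NEM. For SSA3 minus SSA4 it was 0.22 and 0.60, for HSP104 minus HSP78 -0.32 and -0.28, and for SSE1 minus SSE2 0.14 and 0.22 after the same treatments. For CPR6 minus CPR7 it was 0.59 after acrolein. SSB1 and SSB2 did not pass in any treatment, with differences of -0.23, -0.06 and -0.16 (exact permutation p = 0.0571, 0.343 and 0.0857). The SSB1 probe set used may also report SSB2, so this does not show equal change. The other SSB1 probe set, without the shared suffix, differed from the control by 0.69, 0.40 and 0.34. SSB2 differed by 0.69, 0.33 and 0.41 in the same order. The part of shared probes in the pair differences was not tested. The adjusted values pass only together, since at least 14 of the 24 must reach the smallest p. Without any 1 of the 4 control arrays none of the 24 passed.

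**Figure D3:**
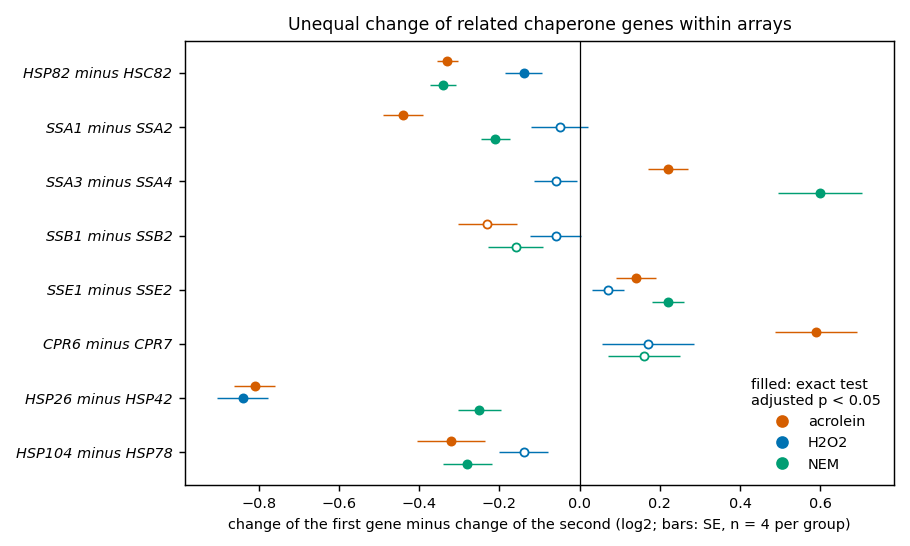
Points give the change of the first gene minus the change of the second, treated against control, on the log2 scale for 8 pairs of related genes (bars are standard errors, n = 4 arrays per group). Filled points are the 15 of 24 tests whose adjusted exact p was 0.0457, and the pair HSP26 and HSP42 lies farthest from 0 after acrolein and H2O2.

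Direct comparisons between treatments separated several members. Acrolein differed from H2O2 in 21 of the 34 genes, 18 higher and 3 lower after acrolein. That is 61.8% called, 52.9% higher and 8.82% lower, against 55.9%, 25.9% and 29.9% of all probe sets. NEM differed from H2O2 in 19, 16 higher and 3 lower after NEM, which is 55.9%, 47.1% and 8.82% against 52.3%, 25.1% and 27.2%. In both comparisons the share called lay close to the background, while the members called were mostly higher and the probe sets at large were not. Acrolein differed from NEM in 17, 9 higher and 8 lower after acrolein, which is 50.0%, 26.5% and 23.5% against 49.9%, 24.1% and 25.8%. AHA1 was 1.36 ± 0.07 higher after acrolein than after H2O2 (limma adjusted p = 9.53e-09), YDJ1 0.74 ± 0.07 (adjusted p = 8.92e-07), MDJ1 0.71 ± 0.05 (adjusted p = 6.65e-08) and APJ1 0.57 ± 0.08 (adjusted p = 4.44e-05). APJ1 also stood higher after acrolein than after NEM, by 0.42 ± 0.08 (adjusted p = 0.000677), whereas CPR7 was lower by a difference of -0.41 ± 0.10 (adjusted p = 0.0033) and CDC37 by -0.45 ± 0.09 (adjusted p = 0.00099). SNL1 was lower after NEM than after H2O2, with a difference of -0.51 ± 0.10 (adjusted p = 0.00105), and SSA4 by -0.38 ± 0.06 (adjusted p = 7.86e-05).

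Most of these transcripts started from a high signal. In the control 22 of the 34 genes (64.7%) had a mean of at least 14 and 9 (26.5%) of at least 15, against 11.9% and 2.73% of all probe sets. The highest value of each array lay between 16.10 and 16.28. Among the 158 probe sets with a control mean of at least 15 the median size of the difference, whatever its sign, was 0.20 after acrolein and 0.12 after NEM. It was 0.31 and 0.21 from 14 to 15, where 13 members lie, 0.32 and 0.25 from 13 to 14, 0.29 and 0.29 from 11 to 13, 0.53 and 0.46 from 8 to 11, and 0.23 and 0.18 below 8. From 8 upward the NEM median thus fell at every step, and so did that of H2O2, from 0.21 to 0.07. The acrolein median fell from 0.53 to 0.20, but not at every step. Probe sets below 8 did not follow this order. The 9 members at 15 or more, such as HSP104, HSP42, SSA1 and SSA4, had medians of 0.18 and 0.13. HSP26, with a control mean of 15.14, is also among these 9 and differed by -0.81 after acrolein and -0.23 after NEM. The part of a bright signal in the sizes of the members' changes was not tested.

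**Figure D4:**
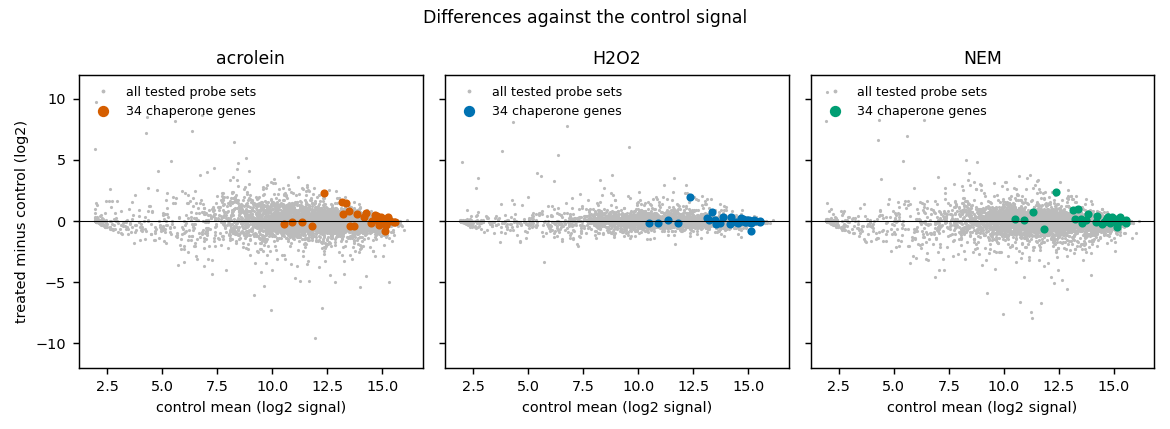
Each panel plots the difference of 1 treatment from the control (log2) against the control mean (log2 signal), with all 5785 tested probe sets in grey and the 34 chaperone genes in colour. The coloured points crowd at the right, 22 of them at a control mean of 14 or more.

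Another 46 chaperone and stress factor genes, from further lists, were called about as often as probe sets at large. After acrolein 14 rose and 16 fell, after H2O2 5 rose and 3 fell, and after NEM 14 rose and 15 fell. The shares called were 65.2%, 17.4% and 63.0%, against 64.0%, 19.8% and 58.6% of all probe sets. All 8 subunits of CCT, the cytosolic chaperonin that folds actin and tubulin, rose after NEM, 6 rose after acrolein and 3 after H2O2, and none fell, where 26.4%, 27.2% and 9.23% of all probe sets rose. CCT2 rose by 0.75 ± 0.05 after NEM, 0.48 ± 0.05 after acrolein and 0.21 ± 0.05 after H2O2, and CCT6 by 0.40 ± 0.04 after NEM, 0.18 ± 0.04 after H2O2 and 0.10 ± 0.04 after acrolein. CCT5 rose by 0.21 ± 0.07, 0.27 ± 0.07 and 0.27 ± 0.07 after acrolein, H2O2 and NEM, and TCP1 by 0.22 ± 0.06 after acrolein and 0.20 ± 0.06 after NEM. The acrolein call of CCT6 was lost without control replicates 1, 2 or 4 or acrolein replicates 2 or 3 (differences 0.08 to 0.10, adjusted p up to 0.0816). The call of CCT2 after H2O2 ended when control and H2O2 arrays were fitted alone (limma adjusted p = 0.0551). Of 6 prefoldin subunits, which hand actin and tubulin to CCT, 1 rose and 1 fell after acrolein, 2 fell after NEM and none passed after H2O2. The share called was 33.3% after acrolein and after NEM, below the 64.0% and 58.6% of all probe sets. PFD1 fell by 0.48 ± 0.10 after acrolein and 0.47 ± 0.10 after NEM, GIM3 rose by 0.38 ± 0.05 after acrolein, and PAC10 fell by 0.41 ± 0.11 after NEM.

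Of 11 further J proteins 8 fell and 2 rose after acrolein, 4 fell and none rose after NEM, and 2 fell and none rose after H2O2. The shares that fell were 72.7%, 36.4% and 18.2%, against 36.9%, 32.2% and 10.6% of all probe sets, so the NEM share lay near the background. HLJ1, a J protein of the endoplasmic reticulum membrane, fell by 1.03 ± 0.11 after acrolein and 1.59 ± 0.11 after NEM. MDJ2, a mitochondrial J protein, fell by 0.71 ± 0.24 after acrolein, 0.88 ± 0.24 after H2O2 and 0.89 ± 0.24 after NEM. Its signal was dim, with a control mean of 6.83. The same low value, 5.81, recurred on H2O2 replicates 2 and 4 and NEM replicates 1 to 3, so these sizes are uncertain. The acrolein call of MDJ2 was lost without control replicate 2 (-0.61, limma adjusted p = 0.0552), with the 2 groups fitted alone (adjusted p = 0.0544) and after quantile normalization (-0.36). The H2O2 call of MDJ2 ended without control replicate 2 (difference -0.78, limma adjusted p = 0.0596) and without H2O2 replicates 2 or 4 (-0.84 in both, adjusted p = 0.0514 and 0.05). The NEM call of MDJ2 ended after quantile normalization, with a difference of -0.45. CAJ1 fell by 0.53 ± 0.06 after acrolein (adjusted p = 1.01e-05), with all acrolein arrays below the control, and by 0.23 ± 0.06 after H2O2. The H2O2 call of CAJ1 was lost without control replicates 2 or 4 (-0.22 and -0.21) or H2O2 replicates 2 or 3 (-0.22 and -0.20). JJJ3 was called higher after acrolein, but none of its arrays exceeded 5.15, the top signal among probe sets designed for another yeast, so no fold is given.

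Of 6 further Hsp90 partners and prolyl isomerases 1 rose and 2 fell after acrolein, 2 rose and 2 fell after NEM and none passed after H2O2. The shares called after acrolein and NEM, 50.0% and 66.7%, lay near the 64.0% and 58.6% of all probe sets. PPT1, a phosphatase that acts on Hsp90, rose by 1.95 ± 0.29 after acrolein and 1.15 ± 0.29 after NEM, and PIH1, of an Hsp90-binding assembly complex, fell by 0.96 ± 0.17 and 0.68 ± 0.17. In the list of nascent chain and tail-anchor factors 2 of 5 rose after acrolein, 2 rose and 2 fell after NEM and 1 fell after H2O2. SGT2, a cochaperone of the tail-anchor route, rose by 0.35 ± 0.08 after acrolein and 0.27 ± 0.08 after NEM, and EGD2 rose by 0.20 ± 0.05 after acrolein. BTT1 fell by 0.42 ± 0.08 after H2O2 and 0.19 ± 0.08 after NEM (limma adjusted p = 0.0487). The NEM call of BTT1 ended without control replicates 2, 3 or 4, acrolein replicates 2 or 4, any 1 H2O2 array, or NEM replicates 1, 2 or 4 (adjusted p up to 0.13).

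Of 7 further stress-linked factors 2 rose after each treatment, 3 fell after acrolein and after NEM and none fell after H2O2. The shares called were 71.4%, 71.4% and 28.6% after acrolein, NEM and H2O2, against 64.0%, 58.6% and 19.8% of all probe sets. CUR1, which sorts misfolded proteins, rose by 1.88 ± 0.14 after acrolein (limma adjusted p = 9.12e-08), 0.63 ± 0.14 after H2O2 (adjusted p = 0.00658) and 1.08 ± 0.14 after NEM (adjusted p = 1.81e-05). HSP30, a plasma membrane protein induced by stress, rose by 1.15 ± 0.06 after acrolein (adjusted p = 4.37e-09), 1.13 ± 0.06 after H2O2 (adjusted p = 2.39e-08) and 0.52 ± 0.06 after NEM (adjusted p = 1.19e-05). SNO4, a paralog of HSP31, was lower after acrolein and NEM, whereas HSP31 was higher. It read 5.24, 6.38, 6.23 and 6.16 in the control, 2.01, 3.19, 2.80 and 2.73 after acrolein and 2.63, 3.14, 3.13 and 2.88 after NEM, and all 8 treated arrays lay within the background range of up to 5.15, so it was at least 1.81-fold lower in both. Its probe set is marked as shared between transcripts, so near-identical paralogs may add to it. Of 3 transcription factors of the stress response 2 fell after acrolein, 2 fell after NEM and none passed after H2O2. The share called was 66.7% after acrolein and after NEM, near the 64.0% and 58.6% of all probe sets. MSN4, one of the general stress factors, fell by 0.60 ± 0.12 after acrolein and 1.47 ± 0.12 after NEM, its partner MSN2 fell by 0.17 ± 0.05 after NEM, and SKN7 fell by 0.32 ± 0.10 after acrolein. The MSN2 call ended without NEM replicate 3 (-0.13, adjusted p = 0.052) and the SKN7 call without control replicate 4 or acrolein replicate 1 (-0.25 in both, adjusted p = 0.0549 and 0.0532).

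**Figure D5:**
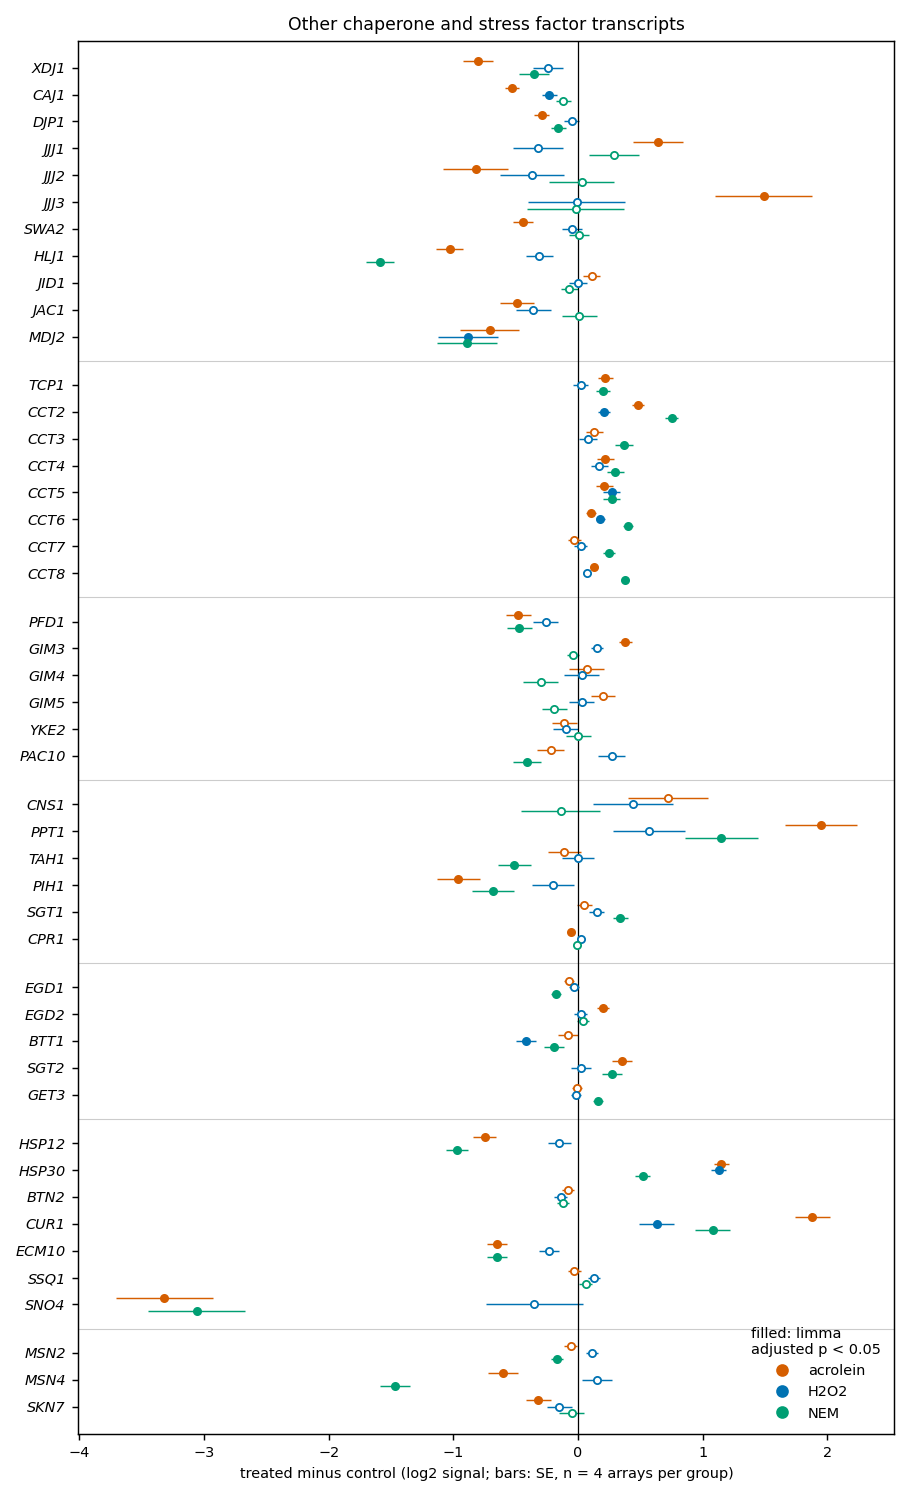
The plot gives the difference from the control on the log2 scale for the 46 measured genes of the further lists, grouped by list (points; bars are standard errors, n = 4 arrays per group; filled points passed the limma test). The CCT subunits lie to the right of 0 after NEM, and CUR1 and PPT1 are to the right after acrolein and NEM. The acrolein and NEM points of SNO4 rest on signals within background and stand only for a fall of at least 1.81-fold, and JJJ3 has no fold.

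The genes next to HSP31, YDJ1 and AHA1 shared the changes of these members only in part. The neighbours of HSP31 are KRE28 and FIT1, which lie in the same direction. KRE28 differed by 0.09, -0.21 and -0.18 after acrolein, H2O2 and NEM and passed in none, while FIT1 fell by 0.43 after NEM. YDJ1 lies between AQR1, a drug transporter gene that converges on it, and MTQ1, which is divergent from it. AQR1 rose by 3.81 ± 0.21 after acrolein, 1.44 ± 0.21 after H2O2 and 1.01 ± 0.21 after NEM, and MTQ1 rose by 0.33 ± 0.08 after acrolein alone. UPC2, next to AHA1 in the same direction, differed by -0.19, -1.05 and -0.31 after acrolein, H2O2 and NEM, and was called lower after H2O2 alone. These neighbours were picked after their values had been seen.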

How the data were processed

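Total RNA of the 16 samples was labelled from 8 µg and hybridised to 1-colour arrays, per the labels' protocols. The deposited log2 values were made by the authors with GCRMA, per the submitters' processing notes, which corrects background, normalizes between arrays and summarises the probes of a set. Its version is not stated there. The array medians were 11.85 to 11.92. GCRMA gives dim probe sets a shared low value, so small signals carry no fold. Scanner intensities were not used here, so the effect of the background correction was not tested.

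Of 10928 probe sets, 166 controls and 1747 for another yeast were left out. Names came from the platform annotation, updated for 12 symbols, and 49 dimmer probe sets of a gene were dropped. The 5785 probe sets tested cover 5404 named genes and 381 without a name. limma 3.58.1 (R 4.3.3) was fitted with a mean per group over all 16 arrays, with 12 residual degrees of freedom, and p-values were adjusted by Benjamini-Hochberg over all 5785 within each of 6 comparisons. The threshold was an adjusted p of 0.05, and intervals are 95% intervals of the moderated test. Precision is limited by the number of arrays. Differences had a median standard error of 0.086. Pairs were tested with exact permutation in Python 3.11.15. The script was tested on simulated data. The members and lists were chosen with earlier results of these data known. All 34 genes are named. Values on every array are given for the member of each class with the largest difference, for both genes of each pair that passed and for HSF1. Of each further list, the 2 called genes with the largest differences per treatment are named.

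The labels number the replicates 1 to 4 in every group. Same-numbered arrays deviated together in control, acrolein and NEM (correlations of deviations from the group means 0.20 to 0.56, over all pairs of these groups). With H2O2 the correlations were -0.36 to -0.05 for replicates 1 and 2 and 0.39 to 0.69 for replicates 3 and 4. The labels state no pairing, and the main fit and the permutation tests used none. The replicate number entered as a block only in an alternative fit. The alternatives were a replicate block, quantile normalization, median centring, array weights, a prior that is trended and robust, the 2 groups compared fitted alone, a mean of at least 6, a floor of 4, the mean of a gene's probe sets, an adjusted p under 0.01 and each array left out. Fitting named genes alone, and leaving out acrolein replicate 1 with H2O2 replicate 4, were chosen after seeing the data.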

Additional observations from a re-analysis of the deposited data

Results flagged for a closer look

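Of 136 groups of 4 arrays, 1 for each of the 34 genes and each group, 5 held an array whose gap to the nearest other array relative to the group's range exceeded Dixon's critical value. Chance alone gives about 1 in 20. HSC82 read 14.93 on H2O2 replicate 4 and 15.04 to 15.06 on the other H2O2 arrays. MGE1 read 13.09 on the same array and 13.35 to 13.40 on the others, and that array also had the lowest ribosomal RNA signal, whose part was not tested. SIS1 read 14.81 on H2O2 replicate 3 against 14.98 to 15.01, and 15.07 on NEM replicate 2 against 15.11 to 15.12. SSC1 read 14.89 on NEM replicate 3 against at least 14.99.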

How the results depend on the processing

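Of the 60 calls of members against the control, 43 were kept under all 27 settings (24 for acrolein, 16 for NEM and 3 for H2O2, these being HSP26, YDJ1 and HSP31), 17 ended under at least 1, and 9 further calls appeared under at least 1. For several of these 17 calls the Results name the left-out arrays alone, though other settings ended them as well. The H2O2 count of 10 was 4 with the 2 groups alone, 6 after median centring, with named genes alone or without both doubtful arrays, 5 with a mean of at least 6 or a floor of 4, and 3 at an adjusted p under 0.01. It was 4 to 9 with 1 array left out. At an adjusted p under 0.01 the NEM count of 23 was 15 and the acrolein against NEM count of 17 was 10. With 1 array left out the acrolein count was 25 to 27, the NEM count 18 to 24, acrolein against H2O2 17 to 21, acrolein against NEM 12 to 19, NEM against H2O2 15 to 19, and the count of pair tests passed 0 to 15. The replicate block gave 27, 9 and 23 calls for acrolein, H2O2 and NEM. It ended the H2O2 calls of SSE2 (adjusted p = 0.0627) and SSA3 (0.0614) and the NEM against H2O2 call of SSC1 (0.053), added SSB2 after H2O2 (0.0453), and changed no other call against the control. Signs turned for HSP42 (acrolein -0.03 and NEM -0.03 after quantile normalization, acrolein -0.02 to 0.04 with 1 array left out), for HSF1 after H2O2 (-0.02 without H2O2 replicate 4, alone or with acrolein replicate 1, and -0.02 to 0.20 with 1 array left out) and for HSP26 in acrolein against H2O2 (-0.02 to 0.05 with 1 array left out). None of these was called. The causes were not tested. Values at or under 5.15 are within background and allow no fold.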
